A study of Mus musculus with 19 samples.

Results

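Matrix metalloproteinases and their inhibitors were followed across macrophages and Ly6C+ inflammatory monocytes of the mouse bone marrow, in health and in bone metastasis of breast cancer. The 10 genes were taken by their symbols from the 20998 genes of the deposited expression table, and all 10 had a value on every array: the metalloproteinase genes Mmp14, Mmp19, Mmp8, Mmp9, Mmp12, Mmp13 and Mmp2, the inhibitor genes Timp1 and Timp2, and Adam8. The study sorted cells of both types from marrow and hybridised their RNA to 19 Affymetrix MoGene 2.0 ST arrays. Macrophages were profiled on 5 arrays from healthy and 5 from metastatic marrow, and monocytes on 5 arrays from healthy and 4 from metastatic marrow. For the metastasis groups, female mice 4 weeks old had received 100000 MetBo2 cells by injection into the heart. MetBo2 is a bone-homing clone selected from Met-1, a murine breast cancer line that came from a tumour driven by the polyoma middle T oncoprotein, so the tumour is represented by 1 clone. The mice received no other treatment. The labels name neither the mouse strain nor an age or a sham injection for the healthy mice, and they give no batch and no sort marker beyond Ly6C. Differences in these respects cannot be told apart from the presence of the tumour.

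Matrix metalloproteinases are zinc-dependent proteases that cut collagens, gelatin, elastin and other proteins of the extracellular matrix, and also chemokines, cytokines and cell surface proteins. Most are made as inactive proenzymes that are secreted or held in granules and activated by removal of a propeptide, and tissue inhibitors of metalloproteinases (TIMPs) block the active enzymes. In bone marrow these enzymes are made by myeloid cells, osteoclasts and stromal cells and are known for their part in bone matrix turnover and in the release of cells and growth factors. Transcript levels, which the arrays measured, do not show how much enzyme is active.

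Upstream sequence is shown for 4 of the genes because they show contrasting patterns: Mmp14 and Adam8, which stood higher in the macrophage sort and had positive differences in metastasis in both sorts, and Mmp8 and Mmp13, which belong to the same run of Mmp genes on chromosome 9, where Mmp8 stood above the lowest signals of the array on every array and Mmp13 on none. The RefSeq promoter table (GRCm38.p6) held 7 of the 10 genes, not Mmp19, Mmp9 or Mmp2. Each sequence is the 250 bases before the annotated start, written 5′ to 3′ on the gene's own strand, and capitals mark every match to a searched motif on either strand.
Mmp14, chr14:54431348-54431597, plus strand: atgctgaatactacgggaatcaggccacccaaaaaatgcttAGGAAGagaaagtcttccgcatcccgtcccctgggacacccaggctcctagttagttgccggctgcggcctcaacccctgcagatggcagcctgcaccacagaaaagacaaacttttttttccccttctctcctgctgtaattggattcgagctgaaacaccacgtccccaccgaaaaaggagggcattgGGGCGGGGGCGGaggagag
Adam8, chr7:139992563-139992812, minus strand: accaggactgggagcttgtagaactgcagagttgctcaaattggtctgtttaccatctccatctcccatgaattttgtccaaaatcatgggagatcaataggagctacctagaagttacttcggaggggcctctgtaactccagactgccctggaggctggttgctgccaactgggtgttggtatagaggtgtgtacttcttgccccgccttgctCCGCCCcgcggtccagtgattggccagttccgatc
Mmp8, chr9:7558179-7558428, plus strand: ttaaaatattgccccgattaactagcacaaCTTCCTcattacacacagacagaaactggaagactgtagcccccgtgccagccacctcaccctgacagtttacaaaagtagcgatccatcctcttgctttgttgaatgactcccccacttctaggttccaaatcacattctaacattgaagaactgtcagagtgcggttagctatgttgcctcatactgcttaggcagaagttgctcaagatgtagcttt
Mmp13, chr9:7272264-7272513, plus strand: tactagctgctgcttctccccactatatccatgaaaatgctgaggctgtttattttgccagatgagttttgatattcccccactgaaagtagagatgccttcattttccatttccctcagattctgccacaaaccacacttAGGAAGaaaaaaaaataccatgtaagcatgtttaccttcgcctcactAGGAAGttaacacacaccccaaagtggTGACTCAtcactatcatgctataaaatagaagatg
Motifs were searched by their letters, with N standing for any base: AP-1 as TGANTCA, the GC box as GGGCGG, the GAS element (the interferon gamma-activated site) as TTCNNNGAA, and ETS as AGGAAG. Mmp14 held 2 adjoining GC boxes, which start 19 and 13 bases before the start site (positions -19 and -13), and 1 ETS match at -209. Adam8 held 1 GC box on the opposite strand at -35. Mmp8 held 1 ETS match on the opposite strand at -220, and Mmp13 held 1 AP-1 match at -35 and 2 ETS matches at -109 and -62. No 2 of these matches overlapped. Among 32851 promoters of the same length, 32.7% held a GC box, 29.5% an ETS match, 7.02% a GAS match and 6.75% an AP-1 match. Matches of these short strings describe the sequence only, and their absence from this window says only that these letters are not in it.

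All values are log2 expression as deposited, and differences between groups are log2 fold changes with their standard error (SE) from limma, a linear model fitted across all 20998 genes and 19 arrays. A gene was called when its Benjamini-Hochberg adjusted p-value, taken over the whole table, was below 0.05. Because a gene's probes set its brightness, levels are compared between groups for 1 gene and not between genes. Whether replicate arrays stand for separate mice is not stated in the labels, and the p-values cover the spread among these samples, which may be technical. The array medians lay between 4.45 and 4.55, and 4 Y-linked genes, used as a measure of the signal from transcripts that female mice lack, lay between 2.12 and 2.87 over all arrays. Earlier results of these data had placed macrophages healthy replicate 1 apart from its group, and healthy replicate 5 and metastasis replicate 2 of the macrophages between their groups. The called metastasis results of Mmp14 and Mmp19 in macrophages and the result of Mmp9 are given with and without arrays of this kind. For most other genes called in macrophages, values without such arrays are not given. Because the last 2 arrays were singled out for lying between the groups, leaving them out widens differences by that choice (726 genes called for metastasis in macrophages against 259 with them), and values without them support nothing.

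The labelled cell types were set against marker lists. Of 14 macrophage markers, 5 were higher and 3 lower in the macrophage sort than in the monocyte sort of healthy marrow, and 5 were higher and 4 lower in metastasis. Of all genes, 28% were called between the sorts in healthy marrow (10% as higher in macrophages, 18% as lower) and 26.5% in metastasis (9.6% and 16.9%), so a macrophage list with members on both sides is to be read against that background. Adgre1, which encodes the F4/80 antigen used to mark mouse macrophages, was lower in the macrophage sort, by -0.63 ± 0.15 (SE, adjusted p = 0.00240) in healthy marrow and -0.96 ± 0.16 (SE, adjusted p = 5.93e-05) in metastasis. Cd68 was lower by -0.69 ± 0.10 and -0.90 ± 0.10, while Vcam1, Axl and C1qb were higher. Of 17 neutrophil markers, 11 were higher and 4 lower in the macrophage sort of healthy marrow (median log2 fold change 2.25), and 13 were higher and 3 lower in metastasis (2.76). The 4 lower genes in healthy marrow were Mpo, Elane, Ctsg and Prtn3, which encode proteins of primary granules. The log2 of the summed level of the neutrophil list was 14.7 to 15.0 on healthy and 14.9 to 15.1 on metastasis macrophage arrays, against 12.9 to 13.3 over the monocyte arrays of both kinds of marrow. None of its genes had a group mean at the Y-linked level, which was also true of the macrophage, Ly6C+ monocyte, dendritic cell and endothelial lists. Of 9 markers of Ly6C+ monocytes, 6 were higher and 1 lower in the monocyte sort of healthy marrow. B lineage and plasma cell markers were also higher in the macrophage sort of healthy marrow (9 of 9), as were 5 of 8 T and NK cell markers. Genes of other cell types were higher, and macrophage markers lay on both sides, Adgre1 and Cd68 lower and Vcam1, Axl and C1qb higher. The markers therefore do not settle the macrophage label by themselves, and "macrophages" here means the sort of that name. In bulk samples, fewer cells of a type and less RNA per cell cannot be told apart.

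**Figure D1:**
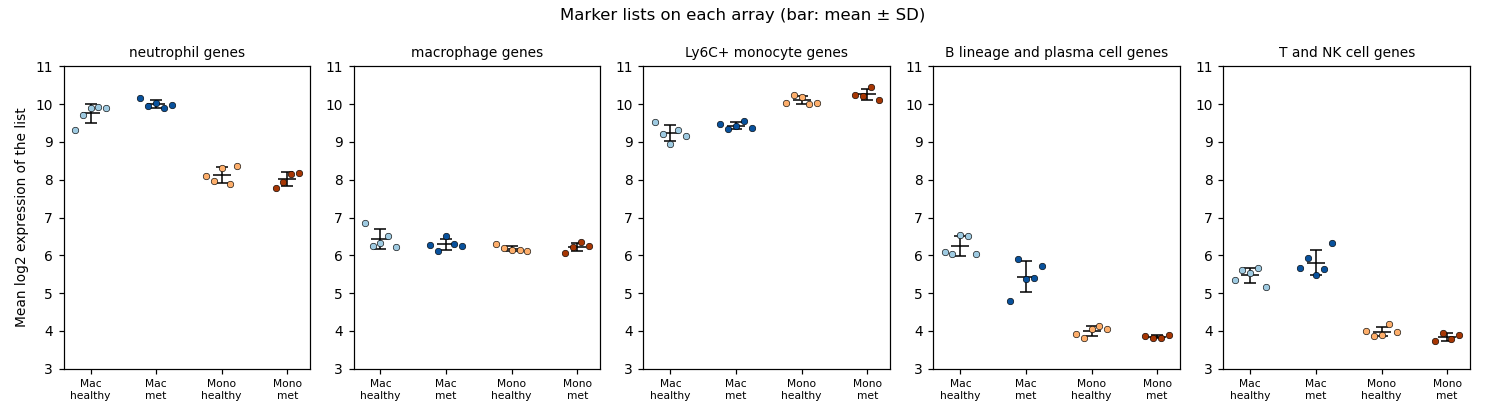
Mean log2 expression of 5 marker lists (y axis) on each array (points) of the 4 groups (x axis; Mac, macrophages; Mono, monocytes; met, metastasis), with bars for the group mean ± SD. The mean of the neutrophil genes was higher on every macrophage array than on any monocyte array, whereas the means of the macrophage genes overlapped between the sorts.

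The central question was which of these genes differ when the marrow holds metastases. In macrophages, Mmp14 and Mmp19 rose and the other 8 genes did not pass the test. In monocytes, Mmp19 rose; Mmp14, Mmp8 and Adam8 had positive differences of 0.56 to 1.11 that did not pass. The share of members called was 2 of 10 in macrophages, where 1.23% of all genes were called (0.638% as higher), and 1 of 10 in monocytes, where 0.514% of all genes were called (0.395% as higher). The median log2 fold change of the 10 genes was 0.02 in macrophages and 0.02 in monocytes, beside 0.00 and -0.01 over all genes. The members were spread around these medians: in monocytes 4 of the 10 lay at 0.56 to 1.11, Mmp9 at -0.26 and the other 5 within -0.04 to 0.02. An unadjusted p below 0.05 was reached by 2 members in macrophages and by 4 in monocytes. The share of all genes at that unadjusted threshold is not given here. Counts at it, here and below, therefore have no background and cannot be set against the shares of called genes. No inhibitor gene was called in either cell type.

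**Figure D2:**
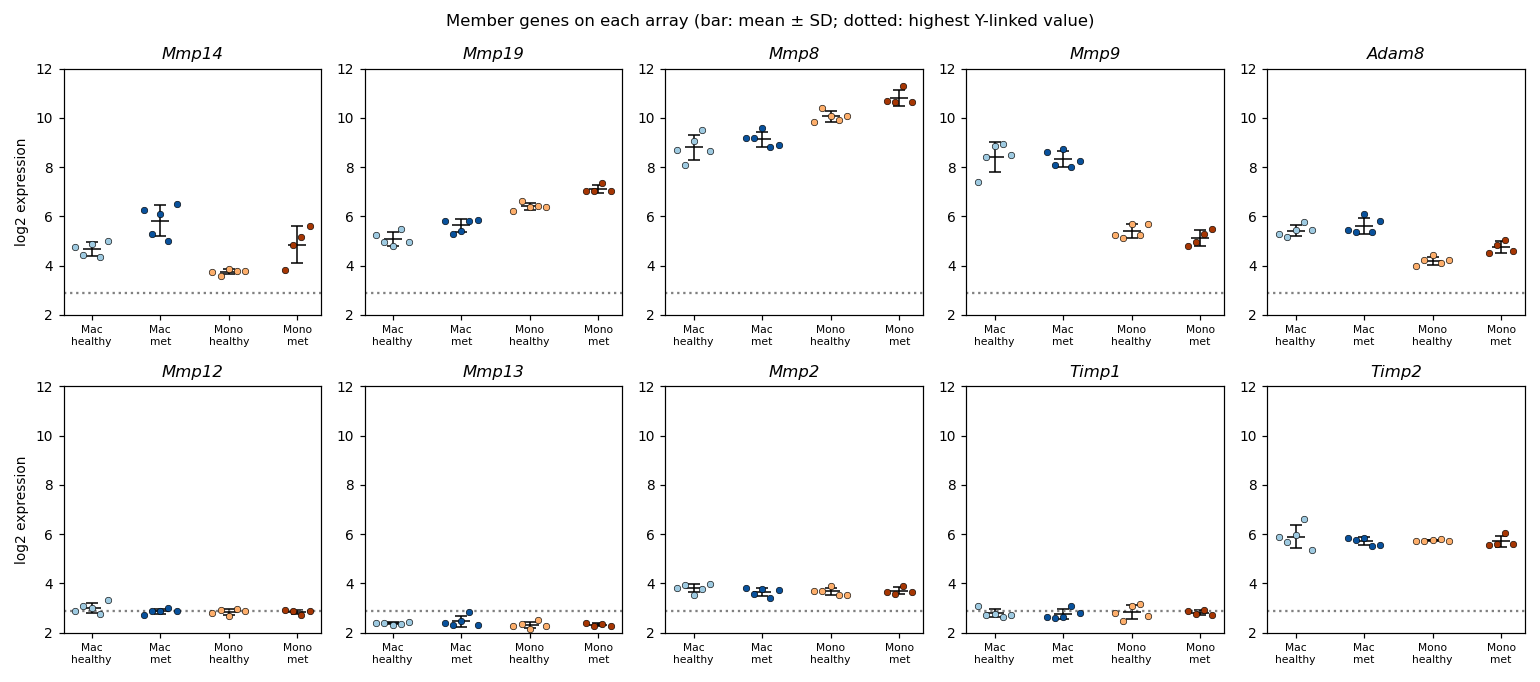
Log2 expression (y axis) of each gene on each array (points) in the 4 groups (x axis; Mac, macrophages; Mono, monocytes; met, metastasis), with bars for the group mean ± SD and a dotted line at the highest Y-linked value, 2.87. Mmp19 rose in metastasis in both sorts and Mmp14 in macrophages, while the Mmp14 groups of monocytes overlapped and did not pass the test. Mmp9 parted the sorts, and Mmp12, Mmp13 and Timp1 lay near the dotted line.

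Mmp14 encodes MT1-MMP, a metalloproteinase anchored in the cell membrane that cuts fibrillar collagen at the cell surface and, together with TIMP2, activates the proenzyme of MMP2. In macrophages of healthy marrow its level was 4.74, 4.43, 4.87, 4.34 and 5.01 on replicates 1 to 5. In macrophages from metastasis it was 6.24, 5.29, 6.10, 5.01 and 6.49. Metastasis replicates 1, 3 and 5 stood well above every healthy array, replicate 2 stood a little above them, and replicate 4 was level with the highest healthy array, so the groups touched. The group means were 4.68 ± 0.29 (SD, n = 5) and 5.83 ± 0.64 (SD, n = 5), a 2.22-fold rise (log2 1.15 ± 0.27, SE; adjusted p = 0.0371 in limma, 95% interval 0.58 to 1.71). Without the 2 arrays that lay between the groups it was 1.37 (adjusted p = 0.0128), a setting that widens differences by choice. The rise lost its call without macrophages healthy replicate 1 (1.16, adjusted p = 0.0625) and without any of 6 others, healthy replicates 2, 3 and 4 and metastasis replicates 1, 3 and 5, with an adjusted p of at most 0.101. It also lost its call when only the macrophage arrays were fitted (adjusted p = 0.0765) and with array weights, which give variable arrays less weight (1.19, adjusted p = 0.0931).

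In monocytes of healthy marrow Mmp14 was at 3.74, 3.58, 3.84, 3.76 and 3.79, and in monocytes from metastasis at 3.81, 4.82, 5.16 and 5.61. Of the 4 metastasis arrays, replicates 2, 3 and 4 stood well above every healthy array and replicate 1 stood within the healthy range. The difference was about as large as in macrophages (1.11 ± 0.29, SE) and did not pass (adjusted p = 0.105). The SD was 0.76 in metastasis and 0.10 in health. It passed in 2 of 15 alternatives, with array weights (1.13, adjusted p = 0.0261) and without metastasis replicate 1 (1.45, adjusted p = 0.00557), which is the array that goes against the rise. With any other array left out the adjusted p was 0.179 to 0.375, and the difference fell as low as 0.85 without metastasis replicate 4. The direct test of the difference between the sorts, macrophages minus monocytes, gave 0.04 ± 0.40 (SE, adjusted p = 0.993), with a 95% interval of -0.78 to 0.86. This interval is wide enough to hold a sizeable difference either way. The order of the group means was monocytes healthy (3.74), macrophages healthy (4.68), monocytes metastasis (4.85) and macrophages metastasis (5.83). The range of the monocytes from metastasis overlapped that of each other group, and healthy monocytes lay below both macrophage groups without overlap.

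Mmp19 encodes a secreted metalloproteinase that cuts components of basement membranes, among other proteins. In macrophages of healthy marrow it was at 5.22, 4.95, 4.78, 5.49 and 4.96, and in macrophages from metastasis at 5.82, 5.30, 5.39, 5.79 and 5.85. Metastasis replicates 1, 4 and 5 stood above all healthy arrays, and replicates 2 and 3 fell between the healthy ones. The mean rose 1.46-fold, from 5.08 ± 0.28 to 5.63 ± 0.26 (SD, n = 5 each; log2 0.55 ± 0.13, SE; adjusted p = 0.0413). It was 0.60 without the 2 arrays that lay between the groups (adjusted p = 0.0200), which again widens differences by choice, and 0.59 without healthy replicate 1 (adjusted p = 0.0485). The call was lost without healthy replicate 2, 3 or 5 or metastasis replicate 1, 4 or 5, with an adjusted p of at most 0.106, and when only the 10 macrophage arrays were fitted (adjusted p = 0.199), and missed the threshold narrowly with array weights (adjusted p = 0.0504) and equal array medians (adjusted p = 0.0555).

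In monocytes Mmp19 was at 6.22, 6.62, 6.38, 6.41 and 6.38 in healthy marrow and at 7.03, 7.02, 7.34 and 7.02 in metastasis. Every metastasis array stood above every healthy array. The mean rose 1.63-fold, from 6.40 ± 0.14 (SD, n = 5) to 7.10 ± 0.16 (SD, n = 4), a log2 difference of 0.70 ± 0.14 (SE, adjusted p = 0.0164). Leaving out metastasis replicate 3, the array on which Mmp19 was highest, ended the call (0.62, adjusted p = 0.110), as did leaving out healthy replicate 1 (0.66, adjusted p = 0.0620). The effect in macrophages minus that in monocytes was -0.15 ± 0.19 (SE, adjusted p = 0.913; 95% interval -0.55 to 0.25).

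**Figure D3:**
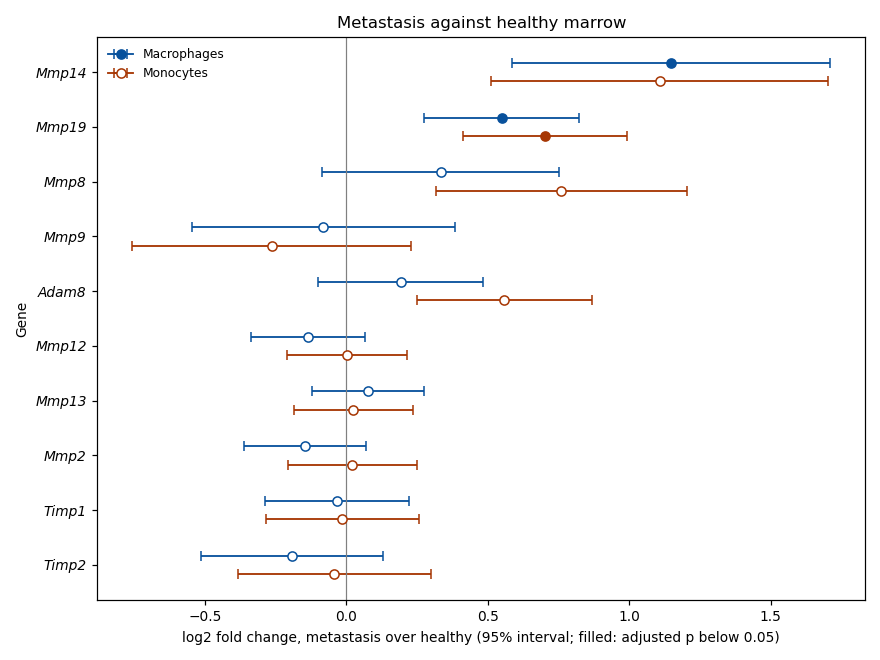
Log2 fold change of each gene (y axis) between metastasis and healthy marrow (x axis) in macrophages and monocytes, with 95% intervals and filled points where the adjusted p was below 0.05. Filled points are Mmp14 and Mmp19 in macrophages and Mmp19 in monocytes, and the points of both inhibitor genes lie near 0.

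Mmp8 and Mmp9 encode a collagenase and a gelatinase that neutrophils store in granules, and Mmp9 is also made by osteoclasts and macrophages. Mmp8 in monocytes was at 9.85, 10.40, 10.08, 9.90 and 10.09 in healthy marrow and at 10.69, 10.65, 11.31 and 10.65 in metastasis. All 4 metastasis arrays were above all healthy ones, and replicate 3 was the highest. The difference was 0.76 ± 0.21 (SE, 1.69-fold) and did not pass (adjusted p = 0.157). It passed in 2 of 15 alternatives, the fit of the 9 monocyte arrays alone (adjusted p = 0.0296) and array weights (adjusted p = 0.0304), and in 0 of 9 fits that left out an array (adjusted p of 0.130 to 0.598 in limma). Over the 10 genes, 3 had higher, non-overlapping groups in monocytes, Mmp19, Mmp8 and Adam8, where 2.96% of all genes did.

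In macrophages Mmp8 was at 8.69, 8.10, 9.05, 9.51 and 8.64 in healthy marrow and at 9.18, 9.18, 9.60, 8.81 and 8.89 in metastasis. The groups overlapped, the healthy arrays being the more scattered (SD 0.52 against 0.31), and the difference of 0.33 ± 0.20 (SE) did not pass (adjusted p = 0.496). It was 0.16 without healthy replicate 2, the lowest array, and 0.51 without healthy replicate 4, the highest. The effect in macrophages minus that in monocytes was -0.43 ± 0.29 (SE, adjusted p = 0.776). Beside these values, the neutrophil list had a median log2 fold change of 0.06 in macrophages and -0.21 in monocytes, with 1 of 17 genes called in each, Prtn3 and Lcn2. Their part in the result was not tested.

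Unlike those of Mmp8, the differences of Mmp9 in metastasis were negative in both sorts, and none of them passed. The contrast between these genes was not tested. In macrophages it was at 7.40, 8.39, 8.84, 8.95 and 8.50 in healthy marrow and at 8.60, 8.09, 8.73, 8.02 and 8.24 in metastasis, groups that overlapped throughout. The difference was -0.08 ± 0.22 (SE, adjusted p = 0.921), and its 95% interval, -0.55 to 0.38, leaves out a 2-fold change. Without healthy replicate 1 the difference was -0.34 (adjusted p = 0.445). That array was the lowest of the 10 macrophage arrays for Mmp9, and on the same array the mean level of the neutrophil list was also the lowest (9.32, against 9.72 to 10.2 on the others). In monocytes Mmp9 was at 5.25, 5.13, 5.69, 5.24 and 5.69 in healthy marrow and at 4.78, 4.97, 5.30 and 5.50 in metastasis, which also overlapped (-0.26 ± 0.24, SE, adjusted p = 0.920).

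Adam8 encodes a membrane-anchored metalloproteinase with a disintegrin domain that leukocytes carry and that sheds cell surface proteins. In monocytes it was at 3.98, 4.23, 4.42, 4.11 and 4.22 in healthy marrow and at 4.53, 4.82, 5.05 and 4.60 in metastasis. The groups did not overlap, and the difference of 0.56 ± 0.15 (SE, 1.47-fold) did not pass (adjusted p = 0.121). It passed in 2 of 15 alternatives, the fit of the monocyte arrays alone (adjusted p = 0.0425) and array weights (adjusted p = 0.0339), and in 0 of 9 fits that left out an array (lowest adjusted p = 0.0960 in limma, without metastasis replicate 1). In macrophages Adam8 was at 5.28, 5.18, 5.45, 5.76 and 5.46 in healthy marrow and at 5.46, 5.38, 6.08, 5.35 and 5.80 in metastasis. Only metastasis replicates 3 and 5 stood above the highest healthy array, and the difference was 0.19 ± 0.14 (SE, adjusted p = 0.591), or 0.075 without metastasis replicate 3. The effect in macrophages minus that in monocytes was -0.37 ± 0.21 (SE, unadjusted p = 0.0888 and adjusted p = 0.706 in limma).

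Across the 10 genes, limma called none for a difference between the sorts in their metastasis effect, and none had an unadjusted p below 0.05. Of all genes, 13 (0.0619%) were called.

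**Figure D4:**
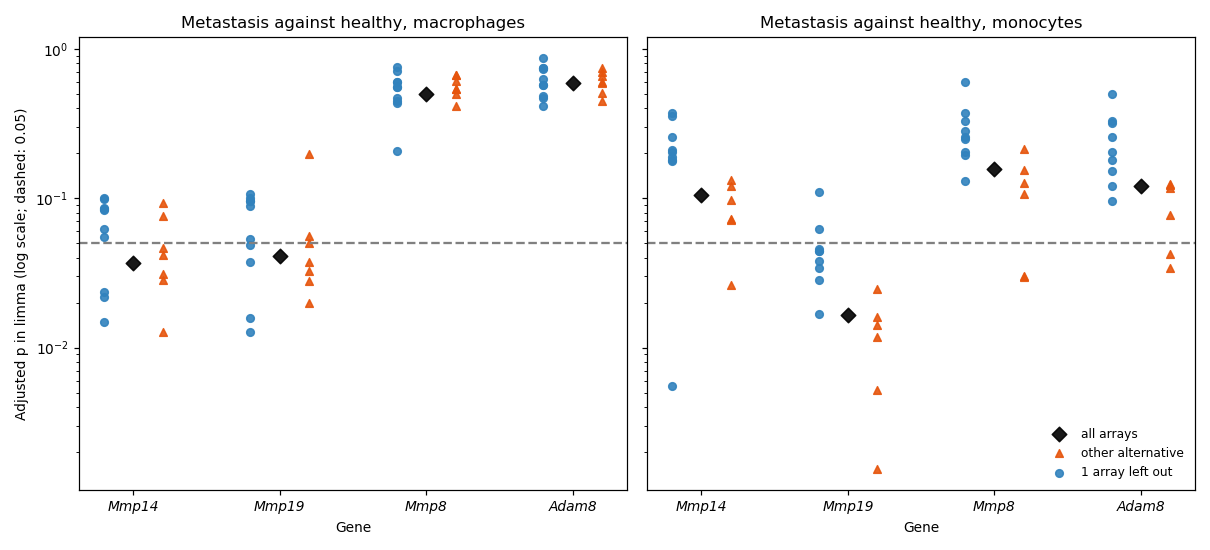
Adjusted p from limma (y axis, log scale, with a dashed line at 0.05) for the metastasis effect on Mmp14, Mmp19, Mmp8 and Adam8 (x axis) in macrophages (left) and monocytes (right), with all arrays (diamonds), with 1 array left out (circles) and under the other alternatives (triangles). The call of Mmp19 in monocytes held in 13 of 15 alternatives. Those of Mmp14 and Mmp19 in macrophages held in 8 of 17 each, which counts the fit without the 2 arrays between the groups. That fit supports nothing. With 1 array left out, the calls of Mmp14 and Mmp19 in macrophages held in 3 and 4 of 10 fits. Each of these fits dropped an array that goes against the rise, a high healthy or a low metastasis one.

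The inhibitors and the remaining metalloproteinases showed little. Timp2, whose product both inhibits metalloproteinases and takes part in the activation of MMP2 by MT1-MMP, was at 5.89, 5.68, 5.98, 6.60 and 5.38 in macrophages of healthy marrow and at 5.85, 5.78, 5.86, 5.52 and 5.55 in metastasis. The metastasis arrays lay inside the healthy range (-0.19 ± 0.16, SE, adjusted p = 0.635), and the difference was -0.019 without healthy replicate 4, the highest array. In monocytes Timp2 was at 5.72 to 5.79 over the 5 healthy arrays, the narrowest group of any member (SD 0.03), and at 5.57, 5.59, 6.07 and 5.59 in metastasis, where replicate 3 stood apart (-0.04 ± 0.16, SE). Timp1, a secreted inhibitor that binds MMP9 among others, was at 2.47 to 3.15 and above the highest Y-linked value on 6 of 19 arrays. Its differences in metastasis were -0.03 ± 0.12 in macrophages and -0.01 ± 0.13 in monocytes (SE).

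Mmp2, which encodes the gelatinase that MT1-MMP activates and is known from stromal cells, was at 3.41 to 3.96 over all arrays, above every Y-linked value. These levels were below the median of every array (4.45 to 4.55), and their range was the narrowest of any member (0.55). A place above the Y-linked values does not by itself show that the transcript was present. Mmp2 differed by -0.15 ± 0.10 in macrophages and 0.02 ± 0.11 in monocytes (SE), neither called. Mmp12, macrophage elastase, was at 2.67 to 3.33 and above the highest Y-linked value on 13 of 19 arrays, and differed by -0.14 ± 0.10 and 0.00 ± 0.10 (SE). Mmp13, a collagenase of cartilage and bone, was at 2.15 to 2.85 and never above the highest Y-linked value, so these arrays give no level for it beyond that. Its differences were 0.08 ± 0.10 and 0.02 ± 0.10 (SE). None of these passed the test, and for Mmp12, Mmp13 and Timp1 a small difference near the lowest signals of the array says little about the transcript.

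Macrophages and monocytes were then compared within each kind of marrow. In healthy marrow 3 of the 10 genes were higher in macrophages, Mmp9, Adam8 and Mmp14, and 2 were lower, Mmp19 and Mmp8; 28% of all genes were called, 10% as higher and 18% as lower. In metastasis the 3 higher and the 2 lower genes were the same, and 26.5% of all genes were called, 9.6% as higher and 16.9% as lower. With so large a background, the size of each difference is given rather than the count.

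Mmp9 was 8.09-fold higher in macrophages of healthy marrow (log2 3.02 ± 0.22, SE; adjusted p = 6.24e-10) and 9.17-fold higher in metastasis (3.20 ± 0.24, adjusted p = 8.09e-10). The lowest macrophage array (7.40) stood well above the highest monocyte array (5.69). Of 9 osteoclast markers, 4 were also higher in macrophages of healthy marrow (Acp5, Atp6v0d2, Ctsk and Itgb3) and 4 in metastasis, and none was lower; the log2 of their summed level was 9.24 to 9.56 and 9.05 to 9.31 on the macrophage arrays, healthy and metastasis, against 8.71 to 8.86 and 8.64 to 8.82 on the monocyte arrays. Of 10 dendritic cell markers, 5 were higher and 1 lower in healthy marrow, and 6 were higher and 1 lower in metastasis. The part of such cells in the Mmp9 difference was not tested. Adam8 was higher by 1.23 ± 0.14 in healthy marrow (adjusted p = 4.51e-07) and by 0.87 ± 0.15 in metastasis (adjusted p = 9.83e-05), with no overlap in either. Mmp14 was higher by 0.93 ± 0.27 (adjusted p = 0.0112), without overlap, and by 0.97 ± 0.29 in metastasis (adjusted p = 0.0132), with overlap. The call in metastasis was lost without monocytes metastasis replicate 1 (0.63, adjusted p = 0.0853), the low array of its group, and in the fit of the 9 metastasis arrays alone (adjusted p = 0.0566).

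Mmp19 ran the other way, 2.50-fold lower in macrophages of healthy marrow (-1.32 ± 0.13, SE; adjusted p = 6.21e-08) and 2.78-fold lower in metastasis (-1.47 ± 0.14, adjusted p = 3.57e-08). Its group means formed 4 steps, from macrophages healthy (5.08) through macrophages metastasis (5.63) and monocytes healthy (6.40) to monocytes metastasis (7.10), and only the lower pair overlapped. Mmp8 was 2.41-fold lower in macrophages of healthy marrow (-1.27 ± 0.20, adjusted p = 3.46e-05) and 3.23-fold lower in metastasis (-1.69 ± 0.21, adjusted p = 2.16e-06). Mmp8 and Mmp9, both known as neutrophil granule enzymes, thus stood in opposite order in these sorts, while 11 of 17 neutrophil markers were higher in the macrophage sort of healthy marrow. The part of neutrophil RNA in either gene was not tested. Timp2 differed by 0.16 ± 0.16 and 0.01 ± 0.16, and Mmp2 by 0.13 ± 0.10 and -0.03 ± 0.11 (SE), none called.

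**Figure D5:**
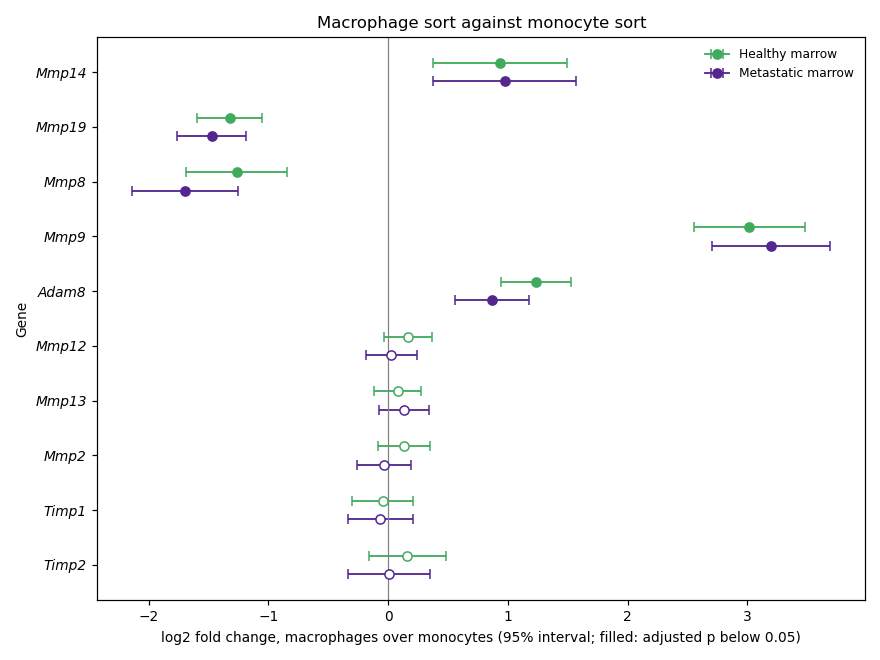
Log2 fold change of each gene (y axis) between the macrophage and the monocyte sort (x axis; positive is higher in macrophages) in healthy and in metastatic marrow, with 95% intervals and filled points where the adjusted p was below 0.05. Mmp9 had the largest difference, 3.02 and 3.20, and Mmp19 and Mmp8 lay on the negative side.

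Among the other genes of the system, few were called for metastasis, as in the whole table (1.23% of all genes in macrophages and 0.514% in monocytes). With shares this low, a count of 0 in such short lists is no result about their genes. None of 16 further Mmp genes was called by limma in either sort, with 0 at an unadjusted p below 0.05 in macrophages and 2 in monocytes, and none of 8 further inhibitor genes was called (1 at an unadjusted p below 0.05 in each sort). Of 9 further ADAM genes, Adamdec1, which encodes a secreted ADAM-like protease, fell in macrophages (-0.61 ± 0.15, SE; adjusted p = 0.0452), from 5.37 ± 0.40 to 4.75 ± 0.24 (SD, n = 5 each). This call held in 3 of 10 fits that left out an array and was lost without healthy replicate 1, 2 or 4 or metastasis replicate 1, 2, 3 or 4 (adjusted p of at most 0.108). It was also lost when only the macrophage arrays were fitted (adjusted p = 0.219) and with array weights (adjusted p = 0.109). Adam19, a membrane-anchored sheddase, fell in monocytes (-0.86 ± 0.19, SE; adjusted p = 0.0458), from 7.17 ± 0.37 (SD, n = 5) to 6.31 ± 0.54 (SD, n = 4). It held in 3 of 9 such fits and was lost without healthy replicate 1, 2 or 3 or metastasis replicate 1, 2 or 4 (adjusted p of at most 0.228). It was also lost when only the monocyte arrays were fitted (adjusted p = 0.127) and, narrowly, with equal array medians (adjusted p = 0.0504). None of 19 ADAMTS genes was called in either sort, with 1 at an unadjusted p below 0.05 in each.

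Of 15 activators and cell surface partners, Lcn2 rose 2.20-fold in monocytes (1.14 ± 0.22, SE; adjusted p = 0.0148), a call lost when only the monocyte arrays were fitted (adjusted p = 0.0906). The array that stood far above its group was metastasis replicate 3, at 10.4 against 8.78 to 9.12 on the other metastasis arrays, and without it the difference was 0.75 and still called (adjusted p = 0.00623). Lcn2 encodes the lipocalin of neutrophil granules, which in human cells is found bound to MMP9, and it also stands in the neutrophil list. None of these genes was called in macrophages (3 at an unadjusted p below 0.05). Of 9 cathepsins and granule serine proteases, Prtn3, the neutrophil serine protease proteinase 3, rose 1.95-fold in macrophages (0.96 ± 0.17, SE; adjusted p = 0.00373), a call lost when only the macrophage arrays were fitted (adjusted p = 0.0695), and none was called in monocytes (1 at an unadjusted p below 0.05).

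Several marker lists held genes that differed with metastasis in the same sorts. In macrophages, where 1.23% of all genes were called, 4 of 9 B lineage and plasma cell markers fell (median log2 fold change -0.70), and the log2 of their summed level was 10.7 to 11.2 on healthy and 8.89 to 10.7 on metastasis arrays. Of 14 macrophage markers, only Mrc1, which encodes the mannose receptor, was called, and it fell (-1.34 ± 0.20, SE, adjusted p = 0.00104). Counting either direction, 9 had an unadjusted p below 0.05, and the median was -0.19. Uncalled markers went both ways. The means of C1qa, C1qb and C1qc went from 5.34 to 5.95, 6.30 to 6.79 and 4.83 to 5.24, while Adgre1 and Csf1r went from 7.34 to 6.99 and 9.45 to 9.09. The summed level of the macrophage markers was 11.27 to 12.04 and 11.30 to 11.47. Of 8 T and NK cell markers, Cd8a rose (0.69 ± 0.13, SE; adjusted p = 0.0102), with a median of 0.44 and a summed level of 9.39 to 10.1 and 9.64 to 10.4. Among the monocyte markers Vcan rose by 1.47 ± 0.26 and Cx3cr1 fell by 0.64 ± 0.16, and Cd209a of the dendritic cell list and Itgb3 of the osteoclast list fell by 1.02 ± 0.24 and 0.56 ± 0.13 (SE). In monocytes, where 0.514% of all genes were called, Vcan rose by 1.33 ± 0.27 and Acp5 by 0.51 ± 0.11, and Cx3cr1, Cd209a and Itgb3 fell by 0.99 ± 0.17, 2.17 ± 0.26 and 1.08 ± 0.14 (SE). Limma called 0 of 14 stromal and 0 of 12 epithelial markers in either sort, with 2 and 1 at an unadjusted p below 0.05 in macrophages and 0 and 0 in monocytes. The part of these lists in the rise of Mmp14 and Mmp19 was not tested.

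Between the sorts, 1 of the 16 further Mmp genes and 1 of the 8 further inhibitors differed in each kind of marrow. These are smaller shares than the 28% and 26.5% of all genes called. Some of these Mmp genes lay near the lowest signals of the array, where a difference is hard to detect, such as Mmp1a (2.07 to 2.55) and Mmp1b (1.79 to 2.95). The smaller shares are therefore not read as a trait of these genes. Mmp25, which encodes a leukocyte metalloproteinase anchored in the membrane by a lipid, was 23.5-fold higher in macrophages of healthy marrow (4.55 ± 0.19, SE; adjusted p = 2.75e-14) and 21.1-fold higher in metastasis (4.40 ± 0.20, adjusted p = 1.60e-13). Its level was 9.24 ± 0.32 and 9.27 ± 0.26 in the macrophage groups (SD, n = 5 each) and 4.69 ± 0.46 (SD, n = 5) and 4.87 ± 0.18 (SD, n = 4) in the monocyte groups. Of the 8 further inhibitors, Reck, which encodes a membrane-anchored inhibitor of metalloproteinases, was higher by 0.87 ± 0.14 and 0.79 ± 0.15 (SE).

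Of the 9 further ADAM genes, 1 was higher (Adamdec1, 0.86 ± 0.15, SE) and 3 lower in macrophages of healthy marrow, and 3 were lower in metastasis. Adam15 was lower by -0.88 ± 0.10 and -0.68 ± 0.11, Adam9 by -0.61 ± 0.11 and -0.90 ± 0.12, and Adam19 by -1.08 ± 0.18 and -0.70 ± 0.19 (SE), and the last lost its call in metastasis without monocytes metastasis replicate 3 (-0.46, adjusted p = 0.0578). Of 19 ADAMTS genes, 2 were lower in healthy marrow, and 1 was higher and 2 lower in metastasis, a smaller share than the 28% and 26.5% of all genes called. Some of them also lay near the lowest signals of the array, such as Adamts18, with group means of 2.63 to 2.72. Adamts3, a protease that processes procollagen, was lower by -0.63 ± 0.11 and -0.79 ± 0.12 (SE).

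Of the 15 partners, 5 were higher and 3 lower in macrophages of healthy marrow, and 5 were higher and 2 lower in metastasis, beside 28% and 26.5% of all genes called. Plau and Plaur encode urokinase and its receptor, which raise plasmin at the cell surface, and plasmin can activate proenzymes of metalloproteinases. Plau was higher by 1.18 ± 0.13 and 1.85 ± 0.14, and Plaur by 0.85 ± 0.12 in healthy marrow (SE). In metastasis the mean of Plaur was 9.99 in macrophages and 9.15 in monocytes. Serpine2, which encodes an inhibitor of such serine proteases, was higher by 2.50 ± 0.22 and 2.53 ± 0.23, and Lcn2 by 3.93 ± 0.21 and 2.84 ± 0.22 (SE). Lrp1, an endocytic receptor that clears several metalloproteinases, was lower by -1.14 ± 0.16 in metastasis (SE). In healthy marrow the mean of Lrp1 was 8.28 in macrophages and 8.76 in monocytes.

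Cathepsins and granule serine proteases went the other way. Of 9 genes, 7 were lower and 1 higher in macrophages of healthy marrow, and 6 were lower and none higher in metastasis, where 18% and 16.9% of all genes were lower. Ctsg, which encodes cathepsin G of primary granules, was 10.2-fold lower in healthy marrow (-3.35 ± 0.17, SE) and 7.08-fold lower in metastasis (-2.82 ± 0.18). The lysosomal cathepsin genes Ctsz and Ctsl were lower by -0.94 ± 0.11 and -0.90 ± 0.16 in healthy marrow and by -0.83 ± 0.12 and -1.24 ± 0.17 in metastasis (SE).

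The Mmp genes of chromosome 9 offer a comparison of neighbours. RefSeq places 10 Mmp genes in a row there, with no other protein-coding gene between them, in the order Mmp13, Mmp12, Mmp1b, Mmp3, Mmp1a, Mmp10, Mmp8, Mmp27, Mmp20 and Mmp7. Mmp8 was at 8.10 to 11.3 over the 19 arrays. Its direct neighbours Mmp10 (3.79 to 4.36) and Mmp27 (3.79 to 4.65) also lay above every Y-linked value. Of the 10 genes, 4 lay above the highest Y-linked value on every array (Mmp8, Mmp10, Mmp27 and Mmp7), 2 on none (Mmp13 and Mmp1a) and 4 on some. Because probes differ in brightness, only the position of each gene against the lowest signals of the array is read from this.

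Patterns over the 19 arrays are given by Pearson's r as a description. The arrays share their groups, so a gene that parts the sorts correlates with any other that does, and deviations from the group means leave that out. The candidates were 5997 genes whose range over the arrays was at least 1 on the log2 scale. The level of Mmp14 ran most like those of the chemokine genes Cxcl9 (r = 0.915), Cxcl11 (0.883) and Cxcl16 (0.874). Among monocytes from metastasis, Cxcl9 was at 5.92, 6.48, 7.19 and 8.43 on replicates 1 to 4, the same order of arrays as for Mmp14. In each of the other groups the array highest for Mmp14 was not the highest for Cxcl9. In deviations from group means, the likest genes for Mmp14 were F11r (0.775), Cxcl11 (0.754) and Cdk6 (0.736). Mmp19 ran most like F10 (0.974), which encodes coagulation factor X, Tgfbi (0.963) and Bscl2 (0.960). Mmp8 ran most like Casp6 (0.950), Mmp9 like Golim4 (0.990), Adpgk (0.989) and Megf9 (0.989), and Adam8 like Slc22a15 (0.956) and Il18rap (0.953). For Mmp9, Adpgk also led in deviations (0.930). For Mmp19, Mmp8 and Adam8, genes other than these led in deviations, namely Mpzl3 (0.832), Egln3 (0.861) and Pigs (0.799).

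Among the members themselves, Mmp19 and Mmp8 had r = 0.915 in level, which fell to 0.29 in deviations from group means. Mmp9 and Adam8 had 0.875 in level and 0.53 in deviations. Mmp8 and Mmp9 had -0.81 in level, since they stand in opposite order between the sorts, and 0.44 in deviations. Mmp8 and Adam8 had -0.54 in level and 0.71 in deviations, and Mmp8 and Timp2 had 0.09 and 0.79. The largest r in deviations by size, -0.80, was that of Timp2 with Mmp12, which lies near the lowest signals of the array. These deviations come from 4 groups of 4 or 5 arrays. Macrophages healthy replicate 4, macrophages metastasis replicate 3 and monocytes metastasis replicate 3 were each the highest array of their group for Mmp8, Adam8 and Timp2.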

How the data were processed

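Per the labels' protocols, RNA was extracted from the sorted cells with a column kit, checked on a bioanalyzer, labelled with biotin and hybridised to MoGene 2.0 ST arrays. The authors deposited log2 values, with 1 value for each of 20998 gene symbols on each of 19 arrays; per the submitters' processing notes they used oligo, and its version, background correction and normalization were not given in the sources used here. A low signal is therefore read only against the 4 Y-linked genes. The number of arrays limits the precision.

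Replicates were numbered in the order of the labels, and no pairing is stated. Group means were fitted with limma 3.58.1 in R 4.3.3 (lmFit, eBayes) to the values as deposited, with 5 contrasts, adjustment over all genes and a threshold of 0.05. The method was tested on simulated data. The members, gene lists and tests were chosen with earlier results of these data known. From each other list of proteases, inhibitors or partners, up to 4 called genes with the smallest adjusted p in a comparison could be named; of markers, some were chosen after their values were seen. The list genes Emcn, Klrb1c, Hbb-bt and Hbb-bs had no value under these symbols.

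The alternatives were to fit only the groups compared, array weights, an intensity trend with a robust prior, the removal of dim genes, which left 11005 with a highest group mean above 4.51, quantile normalization, equal array medians, each array left out in turn, and macrophages healthy replicate 5 and metastasis replicate 2 left out together. Motifs were matched in RefSeq sequence of GRCm38.p6; no coordinates of the arrays were used.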

Additional observations from a re-analysis of the deposited data

Results flagged for a closer look

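Of 40 sets of arrays (10 genes in 4 groups), 4 held an array whose gap to its nearest neighbour took up more of the group's range than Dixon's 95% limit. Chance flags about 1 in 20 sets. In 3 of the 4 the array was monocytes metastasis replicate 3. Mmp19 was at 7.34 there, against 7.03 on the nearest array. Mmp8 was at 11.3, against 10.7. Timp2 was at 6.07, against 5.59. The fourth was Timp1 on macrophages healthy replicate 1, at 3.07 against 2.77, close to the lowest signals of the array. Without monocytes metastasis replicate 3, the metastasis effect in monocytes was 0.62 for Mmp19 (adjusted p = 0.110 in limma) and 0.60 for Mmp8 (adjusted p = 0.598), against 0.70 and 0.76 with it.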

How the results depend on the processing

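Of the 10 genes, 2 were called for metastasis in macrophages, which became 0 in the fit of the groups compared alone, 0 with array weights, 1 with equal array medians and 0 to 2 with an array left out. In monocytes, 1 was called, which became 3 in the fit of the groups compared alone, 4 with array weights and 0 to 2 with an array left out. Of all genes, the 259 called in macrophages became 65, 134 with array weights, 153 to 546 with an array left out (546 without healthy replicate 5) and 726 without both doubted arrays, which were chosen for lying between the groups. The 108 in monocytes became 210, 328 with array weights and 61 to 131 with an array left out. The 13 of the difference between sorts became 21 with array weights, 6 with an intensity trend and robust prior, 61 without both doubted arrays and 4 to 48 with an array left out. Counts between the sorts stayed within 1.5 times in every alternative run. The cause of these moves was not tested.

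Signs turned only for differences that had not been called. With an array left out, Mmp9 ranged from -0.34 (without healthy replicate 1) to 0.051, Timp1 from -0.12 to 0.038 and Mmp13 from -0.021 to 0.12 in macrophages. In monocytes, Mmp12 ranged from -0.041 to 0.047, Mmp13 from -0.015 to 0.071, Mmp2 from -0.048 to 0.080, Timp1 from -0.10 to 0.066 (0.015 with quantile normalization, 0.0033 with equal medians) and Timp2 from -0.16 to 0.0032. Between the sorts, Timp2 ranged from -0.015 to 0.29 in healthy marrow and from -0.037 to 0.13 in metastasis (-0.051 with equal medians, -0.0072 without both doubted arrays), and Mmp2 from -0.073 to 0.036 in metastasis. The difference between sorts in the metastasis effect on Mmp14 ranged from -0.30 to 0.29. Neither scaling alternative moved the median of all genes by as much as 0.1. No paired analysis was possible because the labels give no replicate numbers shared between groups. Transcripts near the Y-linked level, such as Mmp13, cannot be resolved by these arrays.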
